A study of Mus musculus with 4 samples.

Results

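The immediate early genes described here were FOS, FOSB, JUNB, EGR1, EGR3, NR4A1, IER2, NPAS4, ARC and DUSP1, 10 genes chosen by name. Of the 14122 genes with a value at 7 days post injury (dpi), 8 were members, and of the 11469 genes at 21 dpi, 7 were members. The 6 members with values at both time points were FOS, EGR1, EGR3, NR4A1, IER2 and ARC. FOSB and DUSP1 had values at 7 dpi alone and NPAS4 at 21 dpi alone, and JUNB had no value in the rows used here. A gene without a row has no value here, which is different from a level of 0.

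The study compared how mice carrying human ApoE3 or human ApoE4 fare after spinal cord injury. All mice were targeted replacement animals, in which a human APOE isoform stands in place of the mouse gene. All 4 groups were male, aged 3 to 5 months at the start, and received a contusion of 50 kdyne at thoracic level 9. RNA was sequenced from cord segments of about 4 mm around the lesion. The groups were ApoE3 at 7 dpi, ApoE4 at 7 dpi, ApoE3 at 21 dpi and ApoE4 at 21 dpi. Each group comprised 3 mice, whereas the table used here holds 1 value per gene and group. The spread between mice is therefore unknown, no test was run, and no difference below has a replicate check. Sham or uninjured cord was not analysed here, so no value can be read as a response to injury.

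Immediate early genes are transcribed within minutes of a stimulus, without the need for new protein synthesis, and their mRNAs are short-lived. Calcium entry and MAP kinase signaling activate the factors SRF, its ternary complex partners and CREB, which are already bound at their promoters. In the nervous system they are widely used as markers of recent neuronal activity, and they also respond to growth factors, cytokines and stress in glia, endothelial cells and leukocytes.

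Levels are given as FPKM, fragment counts scaled to the length of the transcript and to the number of mapped fragments, and can be compared between genes. Genotype ratios are log2((FPKM in ApoE3 + 1)/(FPKM in ApoE4 + 1)), so that a positive value means higher in ApoE3. The added 1 makes ratios of low genes smaller than the ratios of their FPKM. The number of reads behind each value is unknown. The table can be read in 2 ways: its rows name each comparison as ApoE3 versus ApoE4, which was followed here, whereas the numbering of its columns would put ApoE4 first. The methods of the study define a ratio as the first condition over the second, which with the row names gives ApoE3 over ApoE4. The study's text names the genotypes in either order, so that order gave no further check. The results that the study reported for each genotype were not used here to choose between the readings. Under the second reading every genotype direction below would be the opposite, and values given for ApoE3 would belong to ApoE4. The targeted gene gave no further check, since APOE was listed at 21 dpi alone (843 FPKM in ApoE3 and 1311 FPKM in ApoE4) and its level does not tell the isoforms apart.

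The scale of the whole table differed between groups at 21 dpi. Across the genes that averaged 1 FPKM or more, the median genotype ratio on the log2 scale was 0.0018 at 7 dpi, whereas at 21 dpi it was -0.42. The median FPKM of the listed genes was 26.9 in ApoE3 and 36.8 in ApoE4 at 21 dpi, against 33.0 in both at 7 dpi. Many ratios are therefore also given relative to the median of their comparison, and a ratio given without that value includes the shift.

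NR4A1 had the highest FPKM of the members in each of the 4 groups, and the lowest was FOSB at 7 dpi and EGR3 at 21 dpi. In ApoE3 at 7 dpi the order from high to low was NR4A1, EGR1, ARC, FOS, DUSP1, IER2, EGR3 and FOSB. ApoE4 at 7 dpi had the same order except that FOS stood above ARC. At 21 dpi ARC stood second in both genotypes, followed by EGR1. With 1 value per group, it is unknown which neighbours in these orders differ beyond the spread between mice. Most members were below the median gene of their group. NR4A1 in ApoE4 at 7 dpi and in both genotypes at 21 dpi was above it.

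**Figure D1:**
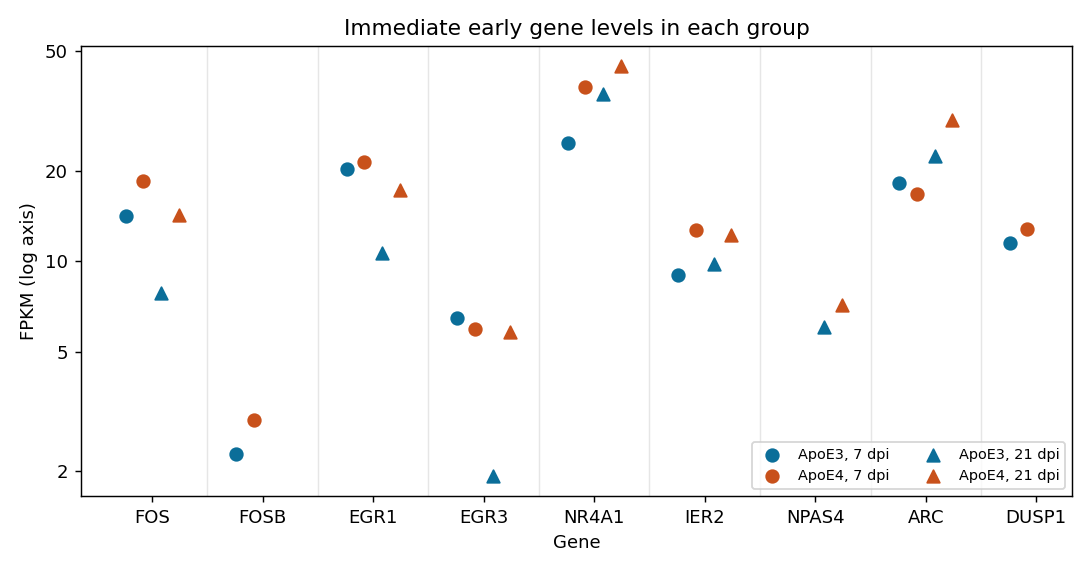
FPKM (log axis) of the 9 members with a value, 1 point per group, with circles for 7 dpi, triangles for 21 dpi, blue for ApoE3 and orange for ApoE4. NR4A1 lies between 24.8 and 44.6 FPKM and EGR3 in ApoE3 at 21 dpi is the lowest point at 1.93 FPKM.

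FOS and FOSB encode partners of Jun proteins in the AP-1 transcription factor. FOS was at 14.2 FPKM in ApoE3 and 18.5 FPKM in ApoE4 at 7 dpi, and at 7.85 and 14.2 FPKM at 21 dpi. FOSB was at 2.27 FPKM in ApoE3 and 2.96 FPKM in ApoE4 at 7 dpi. Both were lower in ApoE3 in every comparison available, and FOS was lowest in ApoE3 at 21 dpi. The log2 ratio of FOS was -0.36 at 7 dpi and -0.78 at 21 dpi, the latter -0.36 relative to the median of all genes, so that relative to the medians FOS stood about equally far below at both time points. The log2 ratio of FOSB was -0.27.

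EGR1 and EGR3 are zinc finger transcription factors that bind the same GC-rich motif, and both are induced by neuronal activity and growth factors. EGR1 was at 20.4 FPKM in ApoE3 and 21.5 FPKM in ApoE4 at 7 dpi, and at 10.6 and 17.3 FPKM at 21 dpi. EGR3 was at 6.50 and 5.97 FPKM at 7 dpi, and at 1.93 and 5.81 FPKM at 21 dpi. For both genes the ApoE3 group at 21 dpi stood below the other 3 groups. EGR1 had a log2 ratio of -0.07 at 7 dpi and -0.65 at 21 dpi (-0.23 relative to the median). EGR3 had 0.11 at 7 dpi and -1.22 at 21 dpi, a 2.32-fold lower value in ApoE3, and was still -0.79 relative to the median. Of all genes listed at 21 dpi, 1.98% had a lower ratio than EGR3. At 1.93 FPKM the ApoE3 value is low, and the count of reads behind it is unknown.

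NR4A1 is an orphan nuclear receptor induced in neurons and in macrophages, IER2 a nuclear protein of the same early response, and NPAS4 a transcription factor that responds to calcium in neurons in particular. NR4A1 was at 24.8 FPKM in ApoE3 and 38.0 FPKM in ApoE4 at 7 dpi, and at 36.1 and 44.6 FPKM at 21 dpi. IER2 was at 9.03 and 12.7 FPKM at 7 dpi, and at 9.79 and 12.2 FPKM at 21 dpi. NPAS4 was at 6.05 FPKM in ApoE3 and 7.16 FPKM in ApoE4 at 21 dpi. In each of these genes ApoE4 was the higher genotype at each time point with a value. At 7 dpi NR4A1 had the lowest log2 ratio of the members, -0.59, and 1.47% of all listed genes had a lower one. IER2 followed with -0.45. At 21 dpi the log2 ratios were -0.30 for NR4A1, -0.29 for IER2 and -0.21 for NPAS4, and relative to the all-gene median the direction flipped for each of these 3, to 0.13, 0.13 and 0.21.

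ARC encodes a synaptic protein whose mRNA moves to active dendrites, and DUSP1 a phosphatase that switches MAP kinases off. ARC was at 18.2 FPKM in ApoE3 and 16.7 FPKM in ApoE4 at 7 dpi, and at 22.4 and 29.6 FPKM at 21 dpi. DUSP1 was at 11.5 and 12.8 FPKM at 7 dpi. ARC and EGR3 were the members with a higher value in ApoE3 at 7 dpi, and both were lower in ApoE3 at 21 dpi. ARC had a log2 ratio of 0.12 at 7 dpi and -0.39 at 21 dpi, which relative to the median flipped to 0.04. DUSP1 had -0.15 at 7 dpi.

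At 7 dpi, 2 of 8 listed members (NR4A1 and IER2) were at least 1.3-fold higher in ApoE4, against 4.76% of all listed genes, and 0 were at least 1.3-fold higher in ApoE3, against 3.78%. Relative to the median the member counts were the same, against 4.82% and 3.75%. FOS was just short of the 1.3-fold limit, with a 1.29-fold higher value in ApoE4 on the scale of FPKM + 1. With a pseudocount of 0.1 or 0.01 in place of 1 it was past the limit, and the count was 3 of 8. The median log2 ratio of the 8 members was -0.21, while that of the 5939 genes within the members' range of mean FPKM was -0.01.

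At 21 dpi, 4 of 7 listed members (FOS, EGR1, EGR3 and ARC) were at least 1.3-fold higher in ApoE4, against 58.9% of all listed genes, and 0 in ApoE3, against 2.01%. The member share of 57.1% was thus close to that of all genes. Relative to the median, 1 of 7 members (EGR3) was at least 1.3-fold higher in ApoE4, against 8.06%, and 0 in ApoE3, against 7.46%. The median of the members was -0.39, near the all-gene value of -0.42. The levels were measured in bulk tissue, so fewer cells that express a gene and less RNA per cell cannot be told apart.

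**Figure D2:**
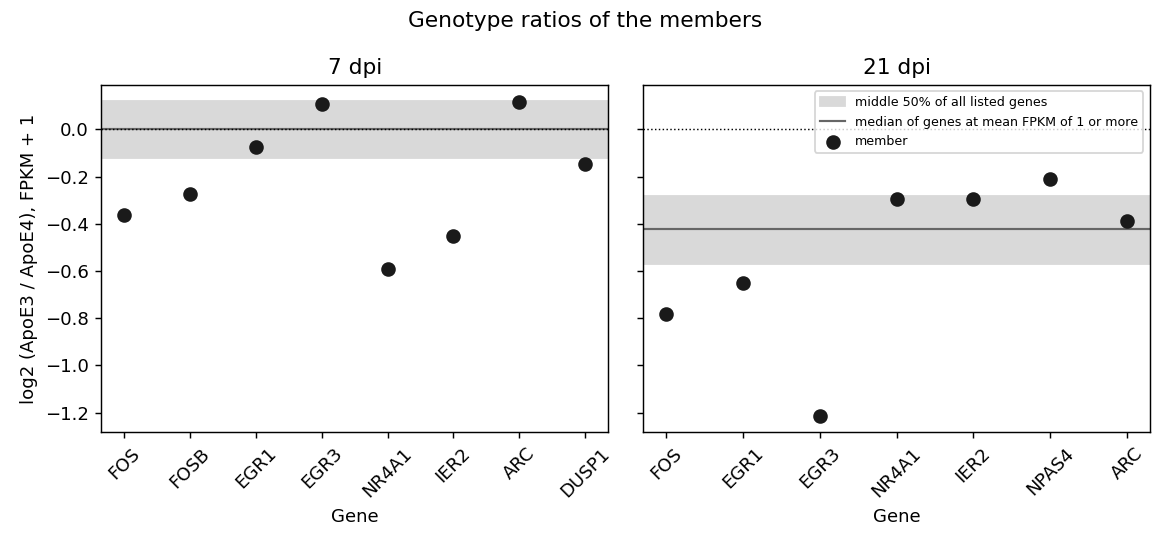
Log2 ratio of ApoE3 over ApoE4 (FPKM + 1) of each listed member at 7 dpi (left) and 21 dpi (right). The grey band spans the middle 50% of all listed genes, the line marks the median across genes that averaged 1 FPKM or more (-0.42 at 21 dpi), and the dotted line marks 0. At 21 dpi FOS, EGR1 and EGR3 lie below the band.

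Levels at 21 dpi were set against those at 7 dpi within each genotype. These come from 2 comparisons that the table lists separately, and whether both were scaled together is not given in the sources used here. The median log2 ratio of 21 dpi over 7 dpi across genes that averaged 1 FPKM or more was 0.09 in ApoE3 and 0.53 in ApoE4.

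FOS, EGR1 and EGR3 were lower at 21 dpi than at 7 dpi in ApoE3, with log2 ratios of -0.78, -0.88 and -1.36, while NR4A1 was higher (0.52). In ApoE4 the same genes had -0.36, -0.30, -0.03 and 0.23. Relative to the medians FOS stood at -0.87 in ApoE3 and -0.88 in ApoE4, and EGR1 at -0.96 and -0.82. Thus FOS and EGR1 were about as far below other genes in both genotypes. EGR3 stood at -1.44 in ApoE3 and -0.56 in ApoE4. NR4A1 stood at 0.43 in ApoE3 and flipped to -0.30 in ApoE4. IER2 was near its 7 dpi level in both genotypes, with log2 ratios of 0.10 in ApoE3 and -0.05 in ApoE4 (0.02 and -0.58 relative to the medians). ARC was higher at 21 dpi in both, at 0.28 in ApoE3 and 0.79 in ApoE4 (0.20 and 0.26 relative to the medians).

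In ApoE3, 1 of 6 members (NR4A1) was at least 1.3-fold higher at 21 dpi, against 31.3% of all genes listed at both time points, and 3 of 6 (FOS, EGR1 and EGR3) were lower, against 23.6%. Relative to the median the counts were again 1 and 3, against 26.6% and 27.7%. In ApoE4, 1 of 6 (ARC) was higher, against 59.0%, and 0 were lower, against 10.9%. Relative to the median 0 were higher, against 26.1%, and 4 (FOS, EGR1, EGR3 and IER2) were lower, against 28.6%. The median log2 ratio of the 6 members was -0.34 in ApoE3 and -0.04 in ApoE4, below the median of all genes in both.

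**Figure D3:**
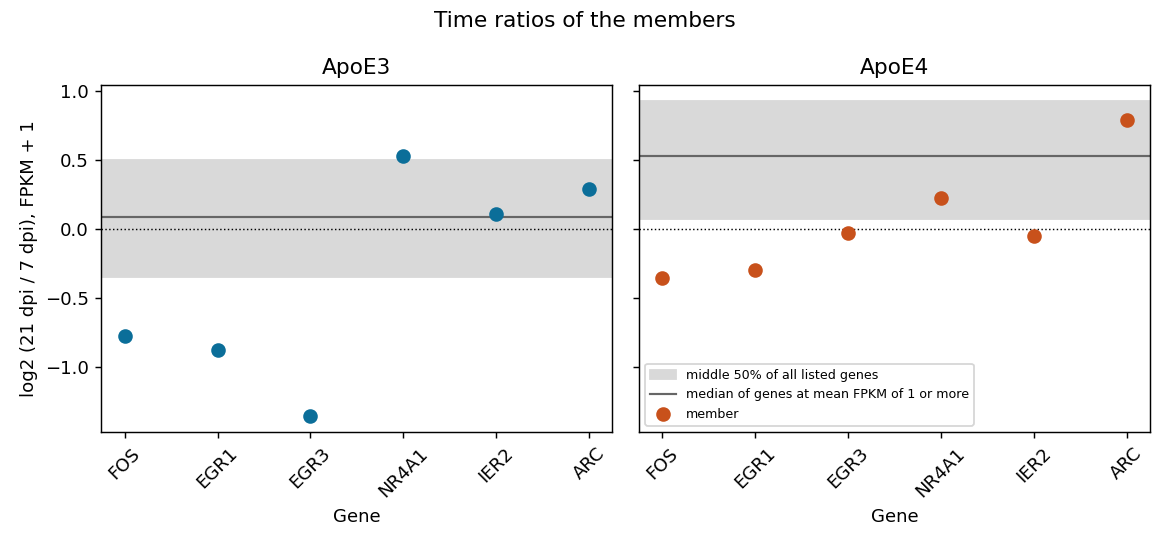
Log2 ratio of 21 dpi over 7 dpi (FPKM + 1) of the 6 members with values at both time points, in ApoE3 (left) and ApoE4 (right). The grey band spans the middle 50% of genes listed at both time points and the line marks the median across genes that averaged 1 FPKM or more, 0.09 in ApoE3 and 0.53 in ApoE4. FOS, EGR1 and EGR3 lie below the band in both genotypes, and IER2 in ApoE4.

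Promoter sequence was matched for 6 of the 10 members in RefSeq (GRCm38.p6), from 250 bases before to 50 after the transcription start. Promoter sequence of EGR1, EGR3, ARC and IER2 was not used here. The sequence TGACG, the shared core of cyclic AMP response elements, was in 6 of 6 windows on either strand, against 20.8% of all 32851 windows. The full palindrome TGACGTCA, which contains TGACG on both strands, was in 1 (DUSP1), against 1.79%. TATAAA was in 2 (FOS and JUNB), against 13.6%, and in JUNB it lay at positions 0 to 5, not upstream of the start. The EGR motif GCGNGGGCG was in 2 (FOSB and NR4A1), against 5.55%. The CArG box, which SRF binds, and the AP-1 motif TGACTCA were in 0 of 6, against 1.63% and 5.2%. The match is a description of these letters and not of a bound factor, and a window without a motif says nothing of sites farther away. The stretches that hold each TGACG upstream of the start are shown for the members with values, because this was the motif they had in common, with TGACG or its reverse complement CGTCA in capitals. They lie at chr12:85473753-85473836 (plus strand) for FOS, chr7:19310093-19310113 (minus strand) for FOSB, chr15:101266605-101266818 (plus strand) for NR4A1, chr19:4990128-4990158 (minus strand) for NPAS4 and chr17:26508600-26508671 (minus strand) for DUSP1. The build behind the FPKM values is not given in the sources used here.
FOS: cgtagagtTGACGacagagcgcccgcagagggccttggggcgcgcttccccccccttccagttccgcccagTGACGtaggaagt
FOSB: gttgcgggTGACGcaagcgcg
NR4A1: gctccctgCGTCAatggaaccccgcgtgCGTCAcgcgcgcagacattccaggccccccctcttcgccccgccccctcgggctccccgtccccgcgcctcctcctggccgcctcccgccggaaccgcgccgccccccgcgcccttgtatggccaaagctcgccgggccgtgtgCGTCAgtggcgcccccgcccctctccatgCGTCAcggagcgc
NPAS4: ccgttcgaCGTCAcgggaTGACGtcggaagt
DUSP1: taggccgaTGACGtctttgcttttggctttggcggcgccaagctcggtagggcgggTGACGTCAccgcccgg
FOS had 2 matches, NR4A1 4, NPAS4 2, DUSP1 3 and FOSB 1. In FOS the TATAAA lies downstream of both, at positions -33 to -28 from the start.

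Other genes of the early response were taken from 6 lists of 58 genes outside the members, and their regulators from a further list of 26. At 7 dpi, 55 of the 58 were listed, of which 9 were at least 1.3-fold higher in ApoE4 and 2 in ApoE3, against 4.76% and 3.78% of all listed genes. Their median was -0.18, and 46 of the 55 had a negative ratio, as did 49.5% of all listed genes. At 21 dpi, 46 were listed, of which 27 were at least 1.3-fold higher in ApoE4 and 2 in ApoE3, against 58.9% and 2.01% of all listed genes, so that the share higher in ApoE4 was near that of all genes. Their median was -0.47, or -0.05 relative to the median of all genes. Relative to that median, 7 were at least 1.3-fold higher in ApoE4 and 3 in ApoE3, against 8.06% and 7.46%. A negative ratio was found at 21 dpi in 93.8% of genes in the whole table, and the counts of lower genes in the lists at this time point stand against that share.

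Among the 9 other AP-1 genes, JUN and JUND are partners of FOS, ATF3 an injury-induced member, and MAFF and MAFK small Maf proteins. At 7 dpi 8 of 9 were lower in ApoE3, from JUN at -0.33 to MAFK at 0.02, and none was past 1.3-fold. At 21 dpi, 7 of 7 were lower, from MAFF at -0.86 (-0.43 relative to the median) to BATF3 at -0.09, although 2 of 7 stood above the all-gene median, BATF3 at 0.34. From 7 to 21 dpi JUND was the highest, at 0.96 in ApoE3 and 1.34 in ApoE4 (0.87 and 0.82 relative to the medians), and ATF3 the lowest, at -1.60 and -1.29 (-1.69 and -1.82).

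EGR2, best known as the factor that drives myelin genes in Schwann cells, had the opposite direction to EGR1 and EGR3 at 21 dpi. It was at 33.1 FPKM in ApoE3 and 51.6 FPKM in ApoE4 at 7 dpi, and at 73.0 and 46.1 FPKM at 21 dpi. The log2 ratio was -0.62 at 7 dpi and 0.65 at 21 dpi (1.07 relative to the median). NAB1, which binds EGR proteins and represses them, was at -0.16 at 7 dpi, and EGR4 at -1.11 at 21 dpi (-0.69 relative to the median) with 0.27 and 1.74 FPKM. NR4A2, a relative of NR4A1, was at 4.70 and 4.81 FPKM at 7 dpi and at 7.65 and 2.78 FPKM at 21 dpi, with log2 ratios of -0.03 and 1.19 (1.62 relative to the median at 21 dpi). NR4A3, listed at 7 dpi alone, had 0.36.

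Of the 10 other factors, 9 were lower in ApoE3 at 7 dpi, from KLF2 at -0.50 to KLF4 at 0.02, and 2 were at least 1.3-fold higher in ApoE4. At 21 dpi 10 of 10 were lower, from NFIL3 at -0.72 to IER3 at -0.08 (-0.30 and 0.35 relative to the median), although 6 of 10 stood above the all-gene median. From 7 to 21 dpi KLF10 was the lowest in both genotypes (-1.19 and -0.78, or -1.28 and -1.30 relative to the medians) and IER3 the highest (0.60 and 0.56). Once the medians were subtracted IER3 stood at 0.51 in ApoE3 and 0.03 in ApoE4, so that in ApoE4 it was no longer past 1.3-fold.

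Of 13 listed effector genes at 7 dpi, 6 were higher in ApoE3, with the prohormone convertase PCSK1 at 0.59 and the matricellular protein CCN1 at -0.64. At 21 dpi 8 of 11 were at least 1.3-fold higher in ApoE4, the lowest log2 ratio being that of the neuropeptide precursor VGF at -1.14 (-0.71 relative to the median) and the highest that of PLK2 at 0.02 (0.44). After the all-gene median was subtracted, 5 were at least 1.3-fold higher in ApoE4 and 1 in ApoE3. VGF was at 2012 and 1710 FPKM at 7 dpi and at 1610 and 3539 FPKM at 21 dpi. INHBA, a subunit of activin, had the lowest time ratio in both genotypes, -1.99 in ApoE3 and -0.61 in ApoE4 (-2.08 and -1.14 relative to the medians), and NPTX2 the highest, 0.93 and 1.35 (0.84 and 0.82).

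The genes listed here as feedback genes were lower in ApoE3 at 7 dpi in 18 of 18 cases, from DUSP6 at -0.63 to GADD45B at -0.01, with 4 at least 1.3-fold higher in ApoE4. At 21 dpi 15 of 15 were lower, from SPRY2 at -0.72 to ZFP36L1 at -0.21 (-0.30 and 0.22 relative to the median), whereas relative to the all-gene median 8 of 15 were higher and 0 were past 1.3-fold in either direction. ZFP36L1 had the lowest time ratio in both genotypes (-1.15 and -1.26, or -1.24 and -1.79 relative to the medians), and the highest were GADD45G in ApoE3 (0.61, or 0.52) and GADD45B in ApoE4 (0.75, or 0.23 and so no longer past 1.3-fold).

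Of the 25 regulators listed at 7 dpi, 0 were past 1.3-fold, from CAMK4 at -0.28 to CAMK2A at 0.31. At 21 dpi the 22 listed ranged from CREB1 at -0.76 to CRTC3 at 0.14 (-0.34 and 0.56 relative to the median), with a median of -0.38, or 0.04 relative to the all-gene median. ELK3 had the lowest time ratio in both genotypes (-1.37 and -1.18, or -1.46 and -1.71 relative to the medians), MAPK3 the highest in ApoE3 (0.52, or 0.44) and CAMK2A in ApoE4 (1.22, or 0.69).

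Marker genes of the cell types that the segments could hold also differed between the groups, and their part in the results on the members was not tested. At 7 dpi the neuron list was higher in ApoE3 in 15 of 15 listed genes, with a summed level of 10488 FPKM in ApoE3 and 8209 FPKM in ApoE4, and its most abundant gene MAP2 at 4119 and 3184 FPKM. The members ARC and EGR3 had the same direction. The macrophage list was lower in ApoE3 in 7 of 9, with 7094 and 9342 FPKM in sum and LYZ2 at 4522 and 6076 FPKM, the direction of 6 of the 8 listed members (NR4A1, IER2, FOS, FOSB, DUSP1 and EGR1). The fibroblast and pericyte list was lower in 8 of 8, with 818 and 1012 FPKM in sum and COL1A1 at 212 and 270.0 FPKM.

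The remaining lists at 7 dpi had medians within 0.1 of 0 for astrocytes (17771 and 17290 FPKM in sum, led by GFAP at 12395 and 12386), oligodendrocytes (126763 and 133926, led by MBP at 120571 and 127575), microglia (3 of 6 listed genes higher in ApoE3), endothelial cells (377 and 378, led by EGFL7 at 112 and 115), Schwann cells (706 and 684, led by PMP22 at 693 and 671) and erythrocytes (492 and 489, led by HBB-BS at 146 and 142). Sensory ganglion genes were higher in ApoE3 in 3 of 3 (484 and 364 FPKM in sum, led by CALCA at 377 and 269). Skeletal muscle genes were higher in 4 of 5 (64.5 and 42.2, led by TNNT3 at 45.7 and 26.5), and neutrophil genes in 2 of 2 (19.4 and 11.5, led by S100A9 at 14.1 and 8.19). These 2 were S100A8 and S100A9, from a neutrophil list of 8 genes. LY6G, CXCR2, MPO, ELANE and CAMP had no value at either time point. No T cell and no liver marker was listed at 7 dpi.

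At 21 dpi lists of tissues outside the cord were far apart between the genotypes. Schwann cell genes were at least 1.3-fold higher in ApoE3 in 5 of 5 (2974 and 1031 FPKM in sum, led by PMP22 at 1970 and 992), and sensory ganglion genes in 8 of 9, although their sum was 810 and 839 because CALCA, the most abundant, was at 702 and 830 FPKM. MRGPRD and TRPV1 were at 0 in ApoE4. The EGR2 and NR4A2 values had the direction of these lists. Skeletal muscle genes were at least 1.3-fold higher in ApoE4 in 6 of 6 (33.6 and 693, led by TNNT3 at 22.5 and 515, with MYH4 at 0 in ApoE3), and liver genes in 7 of 7 (10.7 and 129, led by APOA2 at 5.38 and 59.2).

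Neuron genes at 21 dpi were lower in ApoE3 in 13 of 13 (11986 and 18390 FPKM in sum, led by SNAP25 at 5336 and 7812), with a median of -0.13 relative to the all-gene median. Astrocyte genes were lower in 8 of 8 (11284 and 20591, led by GFAP at 8201 and 15313), oligodendrocyte genes in 7 of 7 (227752 and 321005, led by MBP at 201348 and 278678) and microglia genes in 4 of 4 (259 and 469, led by SIGLECH at 123 and 237). These counts stand against the 93.8% of all listed genes with a negative ratio. Relative to the all-gene median, the astrocyte, oligodendrocyte and microglia lists had medians of -0.35, -0.13 and -0.38. Macrophage genes were lower in 6 of 6 (303 and 590, led by LYZ2 at 212 and 426), neutrophil genes in 3 of 3 (12.7 and 33.0, led by S100A9 at 10.3 and 27.4) and the 1 listed T cell gene, CD3G, had a log2 ratio of -0.65. After the same subtraction the macrophage and neutrophil lists had medians of -0.46 and -0.44, and CD3G stood at -0.23. Endothelial genes were lower in 6 of 7 (438 and 505, led by EGFL7 at 197 and 205), erythrocyte genes in 4 of 4 (1063 and 1335, led by HBA-A1 at 458 and 589.7), and fibroblast and pericyte genes were higher in ApoE3 in 5 of 8 (231 and 216, led by RGS5 at 86.8 and 109, with DCN, named after its values were seen, at 61.9 and 9.37). Of these 8, 3 were at least 1.3-fold higher in ApoE3 and 1 in ApoE4, against 2.01% and 58.9% of all listed genes. Without DCN their sum was higher in ApoE4. COL1A1 (2.44 and 2.27 FPKM), COL3A1 (2.31 and 1.79) and LUM (1.44 and 0.67) were low in both, the last 2 also named after their values were seen. The endothelial and erythrocyte lists flipped once the all-gene median was subtracted, with 7 of 7 and 4 of 4 genes higher in ApoE3, and 4 of 13 neuron genes did.

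From 7 to 21 dpi the macrophage list was lower in 6 of 6 genes in both genotypes, with LYZ2 going from 4522 to 212 FPKM in ApoE3 and from 6076 to 426 FPKM in ApoE4, and the fibroblast and pericyte list was lower in 7 of 8 genes in ApoE3 and 8 of 8 in ApoE4. The neuron list was higher in 12 of 13 genes in ApoE3 and 13 of 13 in ApoE4. Erythrocyte genes were higher at 21 dpi in 4 of 4 in both genotypes, endothelial genes in 5 of 7 in both and sensory ganglion genes in 2 of 2 in both. Oligodendrocyte genes were higher in 4 of 5 in ApoE3 and 5 of 5 in ApoE4, Schwann cell genes in 3 of 3 and 2 of 3, astrocyte genes in 2 of 8 and 7 of 8, and microglia genes in 1 of 4 and 2 of 4. Skeletal muscle genes were higher in 0 of 5 in ApoE3 and 5 of 5 in ApoE4, with medians of -0.99 and 3.48 before any subtraction, and neutrophil genes in 0 of 2 and 2 of 2. Relative to the medians of all genes, astrocyte genes were higher in 1 of 8 in ApoE3 and 2 of 8 in ApoE4. Their median was then -0.51 in ApoE3, and in ApoE4 it flipped from 0.34 to -0.18. Microglia genes were then higher in 1 of 4 in both genotypes, and neutrophil genes in 0 of 2 in ApoE3 and 1 of 2 in ApoE4. No T cell and no liver marker was listed at both time points. Across the genes listed at both time points, 44.1% had a negative time ratio in ApoE3 and 21.7% in ApoE4. The part of these lists in the time ratios of the members was not tested.

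**Figure D4:**
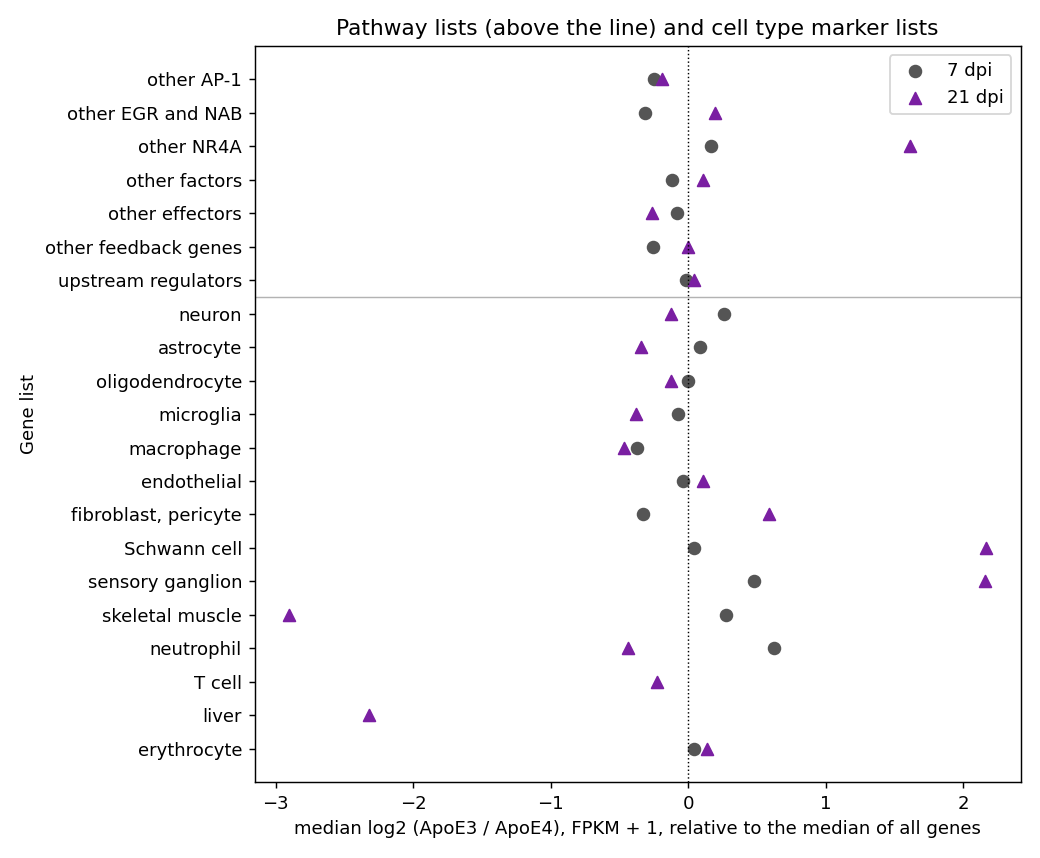
Median log2 ratio of ApoE3 over ApoE4 (FPKM + 1), relative to the all-gene median, of the pathway lists without the members (above the line) and the cell type marker lists (below it), with circles for 7 dpi and triangles for 21 dpi. At 21 dpi the Schwann cell and sensory ganglion lists stand at 2.16 and 2.16 and the skeletal muscle and liver lists at -2.90 and -2.32, while the 7 pathway lists lie between -0.27 and 1.62, the latter from NR4A2 alone.

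The genes closest to the mean profile of the 6 members with values in all 4 groups were sought among 10641 others, by the distance between log2(FPKM + 1) values after each gene's own mean was subtracted. They were ETAA1, FV1, TPM3, TMEM167 and AQP9, with distances of 0.018 to 0.042 over 4 groups. The members themselves lay farther from their own mean, from 0.33 for IER2 to 0.74 for ARC. The 5 genes were chosen as the closest, so their short distances are a description.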

How the data were processed

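Spinal cord lesion segments of 4 groups were sequenced, 1 deposited value per gene and group. The authors deposited FPKM plus 1, made per their processing notes with STAR 2.5.4b, Bowtie2 2.1.10, SAMtools 0.1.7 and Cuffdiff 1.3.0, after libraries were down-sampled to a common read number. The study's methods give 1 replicate a lower alignment rate than the others and do not name its group. The genome build is not given in the sources used here. The deposited tables also hold the authors' p-values, q-values, fold changes and lists of changed genes, which were not used. Here FPKM were recovered by subtracting 1, and log2 ratios used a pseudocount of 1, in Python 3.11.15 with numpy 2.4.6, pandas 2.3.3 and matplotlib 3.10.9. Genes at least 1.3-fold apart were counted, with no test. The 3 symbols on 2 rows were left out. The number of reads behind each gene's value is unknown.

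The members and lists were chosen with earlier results of these data known. The named genes were the members, the highest and lowest ratio of each pathway list among genes averaging 1 FPKM or more, the most abundant gene of each marker list and any at 0, and the 5 genes closest to the members' profile. List symbols absent from the table were matched through RefSeq synonyms (GRCm38.p6). The alternatives were pseudocounts of 0.1 and 0.01, folds of 1.5 and 2, ratios relative to the median, a minimum mean of 1 FPKM, and genotypes read by column number. The values of 1 named gene are not reported here. The procedure was tested on simulated data.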

Additional observations from a re-analysis of the deposited data

Results flagged for a closer look

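Of 55 named genes with values at both time points, 29 had a log2 ratio of opposite sign in the groups compared, either the genotype ratio at 7 and at 21 dpi or the time ratio in ApoE3 and in ApoE4. None of these differences was tested, since each group holds 1 value, and several ratios were close to 0. The values below are the log2 ratio of ApoE3 over ApoE4 at 21 dpi minus that at 7 dpi, which equals the time ratio in ApoE3 minus that in ApoE4. The shift of all genes at 21 dpi lowers each of them.

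Among the members, the genotype ratio changed sign in EGR3 (-1.32) and ARC (-0.50), and the time ratio in IER2 (0.16). Once the medians were subtracted these differences were -0.90, -0.08 and 0.58. Relative to the medians EGR3 kept opposite signs in the genotype ratio and ARC did not. IER2 then had opposite signs in both, with genotype ratios of -0.45 and 0.13 and time ratios of 0.02 and -0.58. NR4A1 also had opposite signs in both once the medians were subtracted, with genotype ratios of -0.59 and 0.13, time ratios of 0.43 and -0.30 and a difference of 0.72.

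In other genes of the response the genotype ratio alone changed sign in NPTX2 (-0.42), INHBA (-1.38) and CAMK2A (-0.70). Both ratios did in EGR2 (1.28), NR4A2 (1.22), PLK2 (0.11), MAFK (-0.63), KLF4 (-0.15), PCSK1 (-1.57) and VGF (-1.37). The time ratio alone did in MAFF (-0.60), NFIL3 (-0.67) and CREB1 (-0.74).

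Of the most abundant cell type markers, the genotype ratio alone changed sign in CALCA (-0.72), COL1A1 (0.42), HBA-A1 (-0.41), SIGLECH (-1.05) and SNAP25 (-0.95). Both ratios did in GFAP (-0.90), MAP2 (-1.16), S100A9 (-2.04) and TNNT3 (-5.22). Of the genes closest to the members' profile, the time ratio did in ETAA1 (-0.40), FV1 (-0.44), TMEM167 (-0.47) and AQP9 (-0.46). Relative to the medians of all genes, 14 of 21 genotype ratios and 10 of 19 time ratios still had opposite signs.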

How the results depend on the processing

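Of the member counts, 39 of the recomputed values were within 1.5 times the reported count and 17 were not. With a fold of at least 1.5, the members higher in ApoE4 at 7 dpi numbered 1 and those higher at 21 dpi in ApoE3 0. With a fold of at least 2, those higher in ApoE4 numbered 0 at 7 dpi and 1 at 21 dpi, those higher at 21 dpi 0 in ApoE3 and 0 in ApoE4, and those lower at 21 dpi in ApoE3 1. With a pseudocount of 0.01, the members lower at 21 dpi in ApoE4 numbered 1. Relative to the median of all genes, the members higher in ApoE4 at 21 dpi numbered 1, and in ApoE4 those higher at 21 dpi than at 7 dpi 0 and those lower 4. With the genotypes read by column number, the members higher in ApoE3 numbered 2 at 7 dpi and 4 at 21 dpi, those higher in ApoE4 0 and 0, and those lower at 21 dpi 0 in ApoE3 and 3 in ApoE4. These follow from how each alternative is built.

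Of the single ratios and their medians, 2 changed sign where the reported value was past 1.3-fold: relative to the median of all genes, ARC at 21 dpi stood at 0.037, as did the median of the members. Of the other recomputed ratios, 47 lay within 0.005 of the reported log2 value and 75 did not. The 47 include 31 under the minimum mean of 1 FPKM. That setting could move neither these ratios nor the member counts above, since every listed member averaged more than 1 FPKM. Another pseudocount cannot change the sign of a single gene's ratio, and 0.1 or 0.01 shifted a ratio by at most 0.34 or 0.39. Subtraction of the median changed the sign of 6 of 31, the 2 above included, and shifted a ratio by at most 0.53. No paired analysis was possible because each group has 1 value. Values for single mice were not used here, so the spread within a group limits every difference given, and the number of reads behind each gene's value is unknown.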
